A study of Mus musculus with 12 samples.

Results

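The Shc adaptors and the proteins that dock on them were followed at the RNA level in 12 mammary tumours: Shc1, Shc2, Shc3 and Shc4, the adaptor Grb2, the exchange factors Sos1 and Sos2, the docking proteins Gab1 and Gab2, and the phosphatase gene Ptpn11. They were chosen by symbol, and these 10 genes are 10 of the 39017 genes in the count table. Each symbol had 1 gene identifier, and all 10 passed the filter on low counts, which left 19370 genes for testing.

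The cells that formed every tumour were NIC, an ErbB2-positive murine breast cancer line without p66ShcA, the longest protein made from Shc1. There were 4 groups of 3 tumours: p66High aggressive, p66Low aggressive, p66High parental and p66Low parental. The p66High cells had been engineered to overexpress p66ShcA constitutively, and the p66Low cells had not. The aggressive populations had passed through 2 rounds of selection in mammary fat pads and had been returned to culture, whereas the parental populations had not been selected. Each population is a single line. For every group, 250000 cells in PBS and matrigel at 1:1 were placed in the fourth fat pad of FVB/N females aged 8 to 12 weeks, and RNA was taken from the bulk tumour. Whether each tumour of a group had its own host mouse is not stated, and the p-values below therefore describe the spread among these 12 samples alone.

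Shc proteins bind phosphorylated receptor tyrosine kinases such as ErbB2 and become phosphorylated on tyrosine themselves. Grb2 docks on those tyrosines and carries SOS, which loads RAS with GTP, or GAB proteins, which recruit the phosphatase SHP2 and PI3-kinase. Shc1 makes p46 and p52 forms, which pass this signal on, and the longer p66 form, which is known as a stress-responsive protein that can dampen RAS signalling and acts in mitochondrial oxidant production.

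The forms of Shc1 differ in where translation starts (GENCODE M21, GRCm38, forward strand of chromosome 3). The stretches below carry the start codon of each form in capitals, and the first also carries in capitals codon 36 of p66, the serine codon known as a target of stress-activated kinases.
p66 start at chr3:89421839-89421970: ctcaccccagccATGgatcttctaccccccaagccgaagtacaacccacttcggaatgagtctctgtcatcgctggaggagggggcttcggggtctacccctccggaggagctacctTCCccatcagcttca
p52 start at chr3:89422169-89422228: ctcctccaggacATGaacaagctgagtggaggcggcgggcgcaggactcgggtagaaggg
p46 start at chr3:89422304-89422345: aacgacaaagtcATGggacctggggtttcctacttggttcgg
The p52 start lies 330 coding bases after the p66 start and the p46 start lies 465 bases after it, giving 579 codons for p66, 469 for p52 and 424 for p46. Of the 330 bases coding in p66 alone, 3 fall in exons of the annotated p52 transcript Shc1-201. The counts are per gene. They therefore cannot separate p66 from p52 and p46 transcripts, nor the introduced p66ShcA from the cells' own Shc1.

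**Figure D1:**
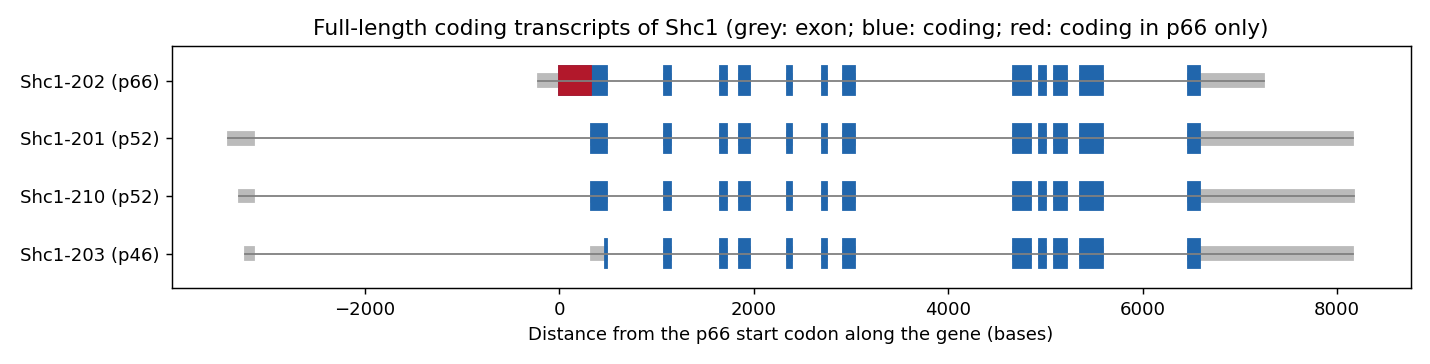
Full-length coding transcripts of Shc1 drawn along the gene (x axis: bases from the p66 start codon; boxes: exons; blue: coding; red: coding in p66 alone). The red stretch at the start of the p66 transcript covers 330 coding bases, and all other coding exons downstream are shared.

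Grb2 is known to bind a phosphorylated tyrosine followed, after any residue, by asparagine. A search of the coding sequences for that pattern found it at codons 349 and 423 of Shc1, counted from the p66 start, at codons 316 and 395 of Shc2 and at codons 221 and 304 of Shc3. Shc4 holds 4 such patterns, at codons 372, 422, 461 and 616. The stretches around the tyrosine that all 4 genes encode as tyrosine, valine and asparagine are shown here on the coding strand, with those codons in capitals.
Shc1 codon 423 at chr3:89426950-89426988, forward strand: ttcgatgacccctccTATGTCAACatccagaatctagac
Shc2 codon 395 at chr10:79623903-79623941, reverse strand: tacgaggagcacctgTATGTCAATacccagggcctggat
Shc3 codon 304 at chr13:51447957-51447995, reverse strand: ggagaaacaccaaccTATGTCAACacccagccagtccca
Shc4 codon 461 at chr2:125649213-125649251, reverse strand: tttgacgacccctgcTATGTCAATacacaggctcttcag
The capitals of Shc2 and Shc4 end in the asparagine codon AAT and those of Shc1 and Shc3 in AAC.

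Libraries held 17.4 to 76.1 M counts (M, mega-counts), and levels are in CPM (counts per M counts of library, after TMM scaling). Summed tumour epithelial markers, 9 genes such as Krt8, Epcam and Erbb2, lay between 2210 and 3320 CPM in all 12 tumours, and no marker was at 0. They did not overlap in the parental pair, at 2210 to 2623 CPM for p66High and 2701 to 3195 CPM for p66Low. Fibroblast markers (8 genes) varied more. Their sum was lowest in p66High aggressive replicate 3 (832 CPM) and highest in p66Low aggressive replicate 2 (4700 CPM). Leukocyte markers (8 genes) summed to 136 to 224 CPM in p66High aggressive tumours and 400 to 1073 CPM in p66Low aggressive tumours. The same sum was 244 to 338 CPM in p66High parental tumours and 162 to 211 CPM in p66Low parental tumours. Lymph node genes such as Cr2 and Ccl21a exceeded 20 summed CPM in 3 libraries, namely p66Low aggressive replicates 1 and 2 (169 and 244 CPM) and p66High parental replicate 3 (54.7 CPM). In bulk RNA, fewer cells of a type and less RNA per cell cannot be told apart.

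Shc1 (ENSMUSG00000042626, mm10 chromosome 3, 89418443 to 89430027) is the gene that was engineered. It stood at 237, 246 and 774 CPM in p66High aggressive tumours, against 61.0, 65.3 and 69.9 CPM in p66Low aggressive tumours. In p66High parental tumours it stood at 271, 234 and 223 CPM, against 65.0, 59.0 and 69.4 CPM in p66Low parental tumours. Every p66High tumour was above every p66Low tumour, and p66High aggressive replicate 3 was 2.86 times the next highest. Shc1 rose in p66High tumours by 2.68 ± 0.38 on the log2 scale in the aggressive pair (SE; adjusted p = 0.000941) and by 1.91 ± 0.37 in the parental pair (adjusted p = 0.0088; edgeR quasi-likelihood test over all genes). These tests serve as a check of the labels.

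No change of Shc1 was called on selection. The log2 difference of Shc1 was 0.02 (95% interval -0.81 to 0.85; adjusted p = 0.979) for p66Low aggressive against p66Low parental tumours. In p66High tumours it was 0.79 (95% interval -0.04 to 1.61; adjusted p = 0.219), with a mean of 419 ± 308 CPM in aggressive and 243 ± 25 CPM in parental tumours (SD, n = 3 each). That difference rests on a single tumour: without p66High aggressive replicate 3 it was -0.02. The same omission lowered the p66High against p66Low aggressive difference to 1.86, which still passed the test. With those 3 lymph-node-rich libraries left out, which leaves 1 p66Low aggressive tumour that is assumed to vary like the other groups, the aggressive difference was 2.60 with an adjusted p of 0.0602.

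No gene beside Shc1 was called higher with it. Among the 5 tested protein-coding genes on each side, which reach out to 355 kb, edgeR called none higher in p66High tumours of either pair. Their median log2 difference was 0.03 in the aggressive pair and -0.06 in the parental pair. Pbxip1 (-0.82, adjusted p = 0.00612) and Adar (-1.32, adjusted p = 0.00258) were lower in p66High aggressive than in p66Low aggressive tumours.

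**Figure D2:**
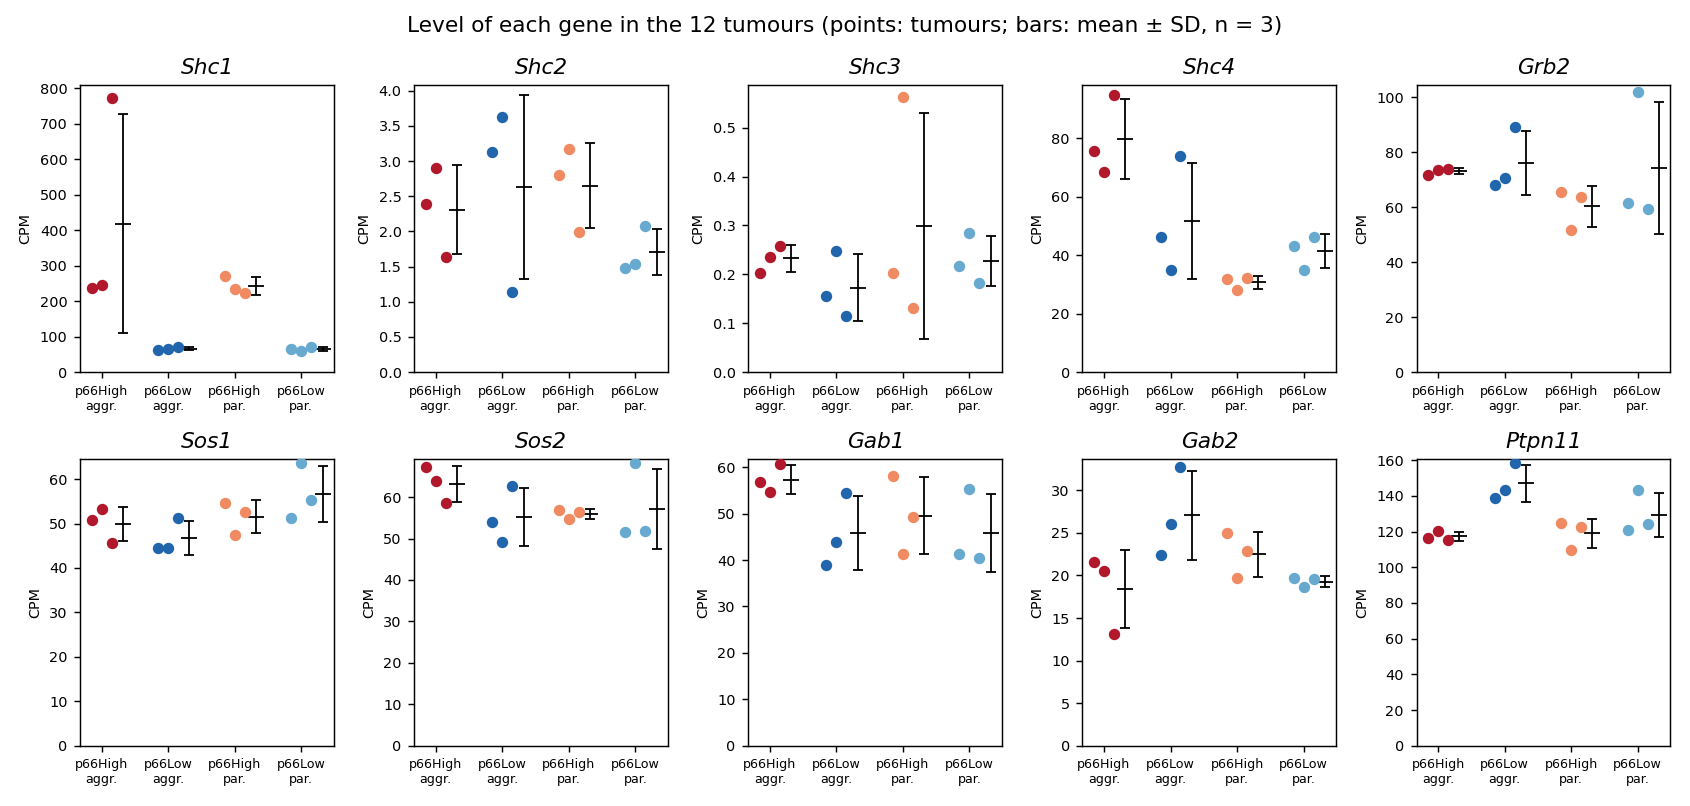
Level of each gene (y axis: CPM, linear from 0) in the 12 tumours, with a panel per gene and a column per group; points are tumours and bars the mean ± SD of 3 tumours. Shc1 separates all p66High from all p66Low tumours, Shc4 is highest in p66High aggressive tumours at 68.3 to 94.9 CPM, and the scales of Shc2 and Shc3 end below 4.1 and 0.6 CPM.

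Shc4 (ENSMUSG00000035109, chromosome 2, 125627447 to 125724148), the Shc member known from mouse brain and from human melanoma, rose on selection in p66High tumours. It stood at 75.7, 68.3 and 94.9 CPM in p66High aggressive tumours, against 31.8, 28.1 and 32.2 CPM in p66High parental tumours. The lowest aggressive tumour was 2.13 times the highest parental tumour. The change was 1.37 ± 0.23 on the log2 scale (SE), a 2.59-fold rise with an adjusted p of 0.00661, and Shc4 was the 1 member of 10 called in that comparison, where 5.94% of all genes tested were called. Groups did not overlap for 3 of the 10, Shc4, Grb2 and Sos2, beside 32.6% of all genes. After summing tumours of a group with the same number in their titles, the change was 1.41 with an adjusted p of 0.0577.

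In p66Low tumours Shc4 stood at 46.2, 35.02 and 73.8 CPM in aggressive tumours, against 43.1, 34.8 and 46.1 CPM in parental tumours. Those groups overlapped, and the log2 difference was 0.32 (95% interval -0.21 to 0.85; adjusted p = 0.384). The difference between the 2 selection changes, p66High minus p66Low, was 1.05 ± 0.32 with an adjusted p of 0.0558, so it missed the threshold of 0.05. It depended on p66Low aggressive replicate 3, the tumour at 73.8 CPM: without it the difference was 1.41 (adjusted p = 0.0035), whereas with the 3 lymph-node-rich libraries left out, which leaves that tumour as the only one of its group, it was 0.58 (adjusted p = 0.347). DESeq2 gave 1.03 with an adjusted p of 0.0178.

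Between p66 levels, Shc4 averaged 79.7 ± 13.7 CPM in p66High aggressive tumours and 51.7 ± 19.98 CPM in p66Low aggressive tumours (SD, n = 3 each). The log2 difference of 0.62 did not pass the test (adjusted p = 0.0774), but it was 0.98 with an adjusted p of 0.00316 without p66Low aggressive replicate 3. In parental tumours the averages were 30.7 ± 2.25 CPM for p66High and 41.4 ± 5.86 CPM for p66Low. All 3 p66High parental tumours were below all 3 p66Low parental tumours, with a log2 difference of -0.43 (95% interval -0.96 to 0.10; adjusted p = 0.293).

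Shc4 shares 527 exon bases with Eid1 on the opposite strand, and the strand setting of the counting is not given in the sources used here, so reads of the pair could be mixed. Eid1, a gene encoding a nuclear regulator, had log2 differences of -0.10 on selection in p66High tumours (adjusted p = 0.659) and -0.13 in p66Low tumours (adjusted p = 0.499). None of the 10 nearest tested protein-coding genes of Shc4 was called on selection in p66High tumours, and their median log2 difference was 0.13.

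Sox10, a transcription factor gene known in neural crest, Schwann cells and mammary epithelium, was picked after its values were seen, as the marker on the Schwann cell and neuron list that moved with Shc4. It stood at 168, 163 and 197 CPM in p66High aggressive tumours, against 80.1, 53.3 and 74.9 CPM in p66High parental tumours. In p66Low tumours it stood at 102, 97.3 and 125 CPM in aggressive tumours, against 156, 118 and 141 CPM in parental tumours. Sox10 rose on selection in p66High tumours by 1.34 on the log2 scale (adjusted p = 0.00118). Its p66High against p66Low difference was 0.70 in aggressive tumours (adjusted p = 0.0108) and -0.99 in parental tumours (adjusted p = 0.00375). The aggressive call was lost without p66Low aggressive replicate 2 (0.63, adjusted p = 0.0513) and with the 3 lymph-node-rich libraries left out (0.51, adjusted p = 0.30). The whole list of 10 markers summed to 236 to 267 CPM in p66High aggressive tumours and 116 to 145 CPM in p66High parental tumours. It summed to 169 to 198 CPM in p66Low aggressive and 192 to 230 CPM in p66Low parental tumours. Its neuron marker Tubb3 did not exceed 0.834 CPM in any tumour, and melanocyte markers summed to at most 1.46 CPM. The part of Sox10-expressing cells in the Shc4 result was not tested.

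**Figure D3:**
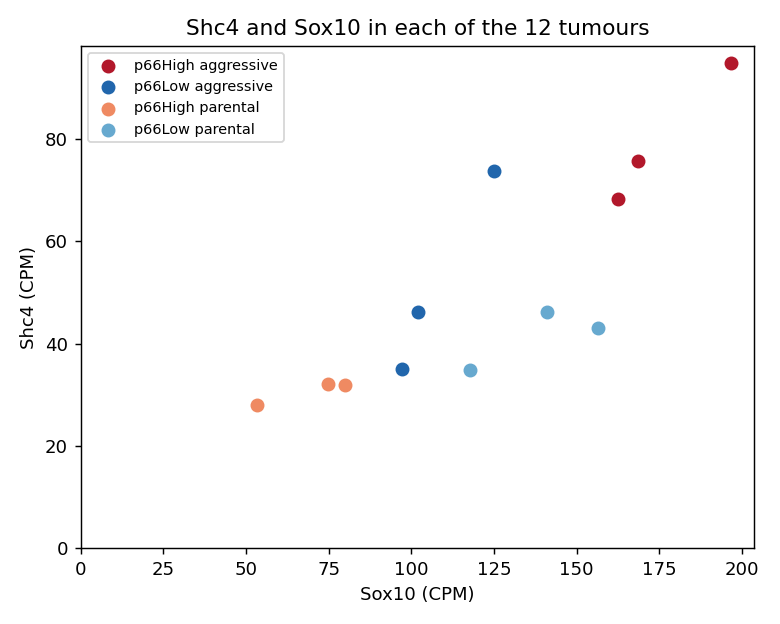
Level of Shc4 (y axis, CPM) against Sox10 (x axis, CPM); each point is 1 of 12 tumours, coloured by group. The 3 p66High aggressive tumours lie at the upper right and the 3 p66High parental tumours at the lower left, with the p66Low tumours between them on the Sox10 axis.

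Shc2 and Shc3, which are known mainly from neurons, were scarce. Shc2 (ENSMUSG00000020312) stood at 2.39, 2.91 and 1.64 CPM in p66High aggressive tumours, against 3.13, 3.62 and 1.14 CPM in p66Low aggressive tumours. In parental tumours it stood at 2.797, 3.17 and 1.99 CPM for p66High, against 1.49, 1.54 and 2.08 CPM for p66Low. No comparison of Shc2 passed the test, and its log2 difference in aggressive tumours was -0.17 (95% interval -1.08 to 0.73). Shc3 (ENSMUSG00000021448) had 3 to 16 counts per library, or 0.114 to 0.563 CPM, close to the floor of 3 counts. Its intervals were wide, -0.97 to 1.76 on the log2 scale for p66High against p66Low aggressive tumours, so a difference in Shc3 was not detectable at this depth.

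Levels of different genes were compared per kilobase of annotated exon (CPM per kb). In p66Low tumours Grb2 came first, at 26.1 ± 3.97 CPM per kb in aggressive and 25.5 ± 8.22 CPM per kb in parental tumours. Ptpn11 followed at 19.6 and 17.3 CPM per kb, then Shc1 at 11.6 and 11.4 CPM per kb, and Gab1 at 9.01 and 8.99 CPM per kb (p66Low aggressive, then p66Low parental). Shc1 came first in p66High tumours, at 74.2 ± 54.5 CPM per kb in aggressive and 43.0 ± 4.43 CPM per kb in parental tumours, above Grb2 in every p66High tumour. The exon length of Shc1, 5645 bases, includes a retained-intron transcript of 2775 bases, whereas the p66 transcript has 2617 bases.

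Within the Shc family, Shc4 was the second gene in all 4 groups. Of the summed CPM per kb of the 4 Shc genes, Shc4 made up 13.8% ± 5.33 in p66High aggressive and 33.3% ± 7.92 in p66Low aggressive tumours (SD, n = 3 each). In parental tumours its share was 7.90% ± 0.862 for p66High and 29.7% ± 1.44 for p66Low. Shc1 made up 85.5% and 63.7% in p66High and p66Low aggressive tumours, and 90.9% and 68.1% in p66High and p66Low parental tumours. The ratio of Shc1 to Grb2 was 1.70 to 5.41 in p66High aggressive and 0.404 to 0.477 in p66Low aggressive tumours. It was 1.80 to 2.34 in p66High parental and 0.299 to 0.605 in p66Low parental tumours, so the ratio stood above 1 in all 6 p66High tumours and below 1 in all 6 p66Low tumours. Counts of Shc1 do not separate the introduced p66ShcA. Differences in these shares and ratios between p66 levels therefore largely restate the engineering. Shc4 itself averaged 9.64 and 6.25 CPM per kb in p66High and p66Low aggressive tumours, and 3.72 and 5.01 CPM per kb in p66High and p66Low parental tumours.

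Some neighbours in the order could not be placed. In p66Low parental tumours the range of Gab1 overlapped those of Shc1 and Sos2, and Sos1 overlapped Shc4. Ranges of Sos2, Shc4, Sos1 and Gab2 overlapped step by step in p66Low aggressive tumours, at means of 6.49, 6.25, 4.41 and 4.39 CPM per kb. In p66High aggressive tumours Shc4, at 9.64 ± 1.66 CPM per kb, overlapped Gab1 above it and lay clear of Sos2 at 7.43 ± 0.507 CPM per kb. Shc4 stood at 3.72 CPM per kb in p66High parental tumours, below both SOS genes and overlapping Gab2. Shc2 and Shc3 were last in each group, at no more than 0.668 and 0.123 CPM per kb in any tumour.

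**Figure D4:**
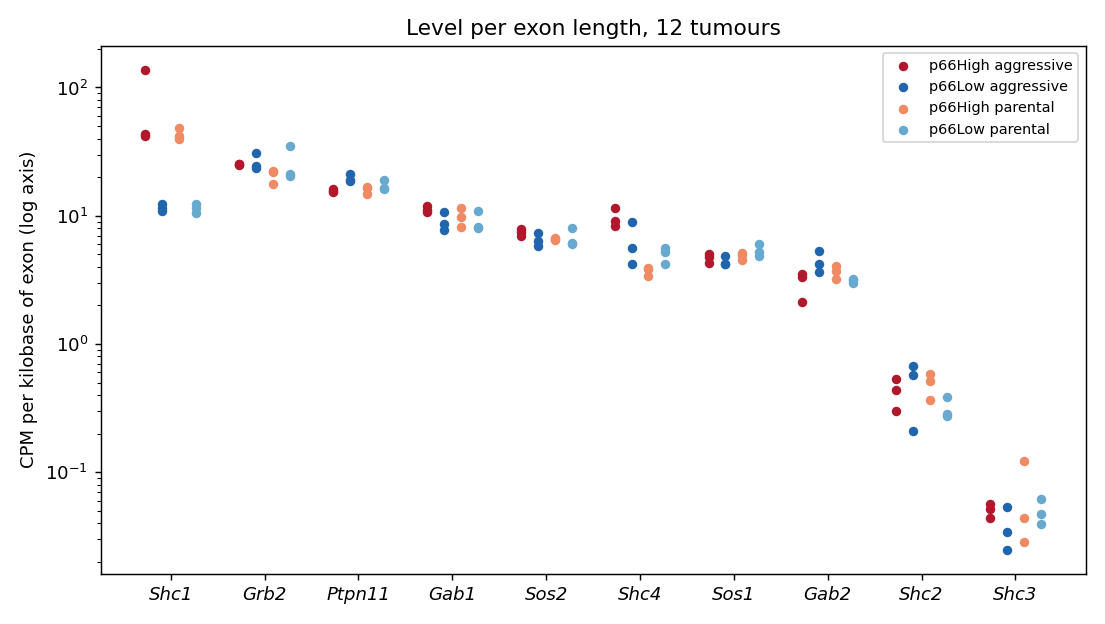
Level per exon length of each gene (y axis: CPM per kilobase of exon, log axis) in the 12 tumours; each point is a tumour, coloured by group. Genes are ordered by their mean over all tumours, from Shc1 at 35.04 to Shc3 at 0.0508 CPM per kb, and Shc1 is the gene whose groups lie farthest apart.

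Grb2 (ENSMUSG00000059923), which bridges phosphorylated Shc to SOS, did not pass the test in any of the 6 comparisons. It stood at 71.9, 73.5 and 73.9 CPM in p66High aggressive tumours, against 68.1, 70.8 and 89.4 CPM in p66Low aggressive tumours. In parental tumours it stood at 65.4, 51.8 and 63.8 CPM for p66High, against 61.7, 102 and 59.3 CPM for p66Low. Both pairs overlapped, and 1 p66Low parental tumour was the highest of the 12. The log2 difference between p66 levels was -0.06 in aggressive tumours (95% interval -0.50 to 0.38) and -0.30 in parental tumours (95% interval -0.74 to 0.14). On selection in p66High tumours it was 0.28 (95% interval -0.16 to 0.72; adjusted p = 0.418), with no overlap and a gap of 6.45 CPM between the nearest tumours.

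The exchange factors Sos1 and Sos2, which act on RAS, varied little over the 12 tumours: the highest was 1.43 times the lowest for Sos1 and 1.39 times for Sos2. Sos1 (ENSMUSG00000024241) stood at 44.4, 44.6 and 51.2 CPM in p66Low aggressive tumours, against 51.2, 63.6 and 55.4 CPM in p66Low parental tumours. All 3 aggressive tumours were below the parental ones, the nearest by 0.06 CPM, and the log2 difference of -0.28 did not pass the test (adjusted p = 0.0942). In p66High tumours the Sos1 difference on selection was -0.05 (95% interval -0.29 to 0.20). Sos2 (ENSMUSG00000034801) stood at 67.3, 63.7 and 58.7 CPM in p66High aggressive tumours, against 53.9, 49.1 and 62.7 CPM in p66Low aggressive tumours. Those groups overlapped, with a log2 difference of 0.20 (95% interval -0.09 to 0.48; adjusted p = 0.305). On selection in p66High tumours all 3 aggressive tumours were above the parental ones, by 1.74 CPM at the nearest, and the log2 difference of 0.18 did not pass the test (adjusted p = 0.433).

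Gab1 (ENSMUSG00000031714, chromosome 8), a docking protein known to recruit SHP2 and PI3-kinase below growth factor receptors, stood at 56.8, 54.6 and 60.7 CPM in p66High aggressive tumours. In p66Low aggressive tumours it stood at 39.0, 43.9 and 54.5 CPM. The groups did not overlap, but the nearest tumours were 0.0863 CPM apart and the log2 difference of 0.32 (95% interval -0.05 to 0.70) did not pass the test (adjusted p = 0.191). In parental tumours Gab1 averaged 49.6 ± 8.37 CPM for p66High and 45.7 ± 8.40 CPM for p66Low (SD, n = 3 each), with overlap.

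Gab2 (ENSMUSG00000004508, chromosome 7), a relative of Gab1 also known in blood cells, stood at 21.6, 20.5 and 13.1 CPM in p66High aggressive tumours, against 22.4, 26.1 and 32.7 CPM in p66Low aggressive tumours. All p66High aggressive tumours were below all p66Low aggressive ones. The log2 difference was -0.56 ± 0.19 (SE) with an adjusted p of 0.0564, which missed the threshold, while DESeq2 (-0.58, adjusted p = 0.0209) and limma-voom (-0.59, adjusted p = 0.0472) called it. In p66Low tumours Gab2 averaged 27.0 ± 5.26 CPM in aggressive and 19.3 ± 0.612 CPM in parental tumours, a log2 difference of 0.49 with an adjusted p of 0.0976. The difference between its selection changes, p66High minus p66Low, was -0.78 ± 0.27 (adjusted p = 0.0778).

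Ptpn11 (ENSMUSG00000043733, chromosome 5, 121130533 to 121191397) encodes SHP2, a tyrosine phosphatase that binds GAB proteins and is needed for full RAS activation by many receptors. It was lower in p66High aggressive tumours, at 116, 120.1 and 115 CPM, against 139, 143 and 158 CPM in p66Low aggressive tumours. The nearest tumours of the groups were 18.9 CPM apart, and the difference was -0.33 ± 0.09 on the log2 scale (SE; adjusted p = 0.0245). In parental tumours it stood at 125, 110 and 122 CPM for p66High, against 121, 143 and 124 CPM for p66Low, with overlap and a log2 difference of -0.12 (95% interval -0.33 to 0.09; adjusted p = 0.466). Ptpn11 averaged 117 CPM in p66High aggressive and 119 CPM in p66High parental tumours (log2 -0.02, adjusted p = 0.914 by edgeR). It averaged 147 CPM in p66Low aggressive and 129 CPM in p66Low parental tumours (log2 0.19, adjusted p = 0.19 by edgeR), so neither selection comparison was called. Averaged over selection, the difference was -0.22 ± 0.06 (adjusted p = 0.0356). This average lost its call with same-numbered tumours summed (adjusted p = 0.0587), with no filter (0.0864), with the lymph-node-rich libraries left out (0.101) and without any 1 of 5 tumours (0.0537 to 0.0780).

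The Ptpn11 call in aggressive tumours was close to the threshold. It was lost when any 1 of 5 of the 6 aggressive tumours was left out (adjusted p of 0.0507 to 0.0762), with no filter on low counts (adjusted p = 0.0537), and with the 3 lymph-node-rich libraries left out (-0.42, adjusted p = 0.12). Leukocyte markers differed between the groups in the same direction, with 207, 224 and 136 summed CPM in p66High aggressive tumours and 772, 1073 and 400 summed CPM in p66Low aggressive tumours. Within the p66Low aggressive group the order differed: replicate 3 had the highest Ptpn11 level, 158 CPM, and the lowest leukocyte sum, 400 CPM. Among the 10 protein-coding genes nearest to Ptpn11, within 421 kb, 6 were also lower in p66High aggressive than in p66Low aggressive tumours. The median log2 difference over the 10 was -1.47. The 6 were Oas2, Oas3, Oas1c, Oas1g and Oas1a, which encode interferon-induced antiviral enzymes, and Trafd1. The part of either in the Ptpn11 result was not tested.

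**Figure D5:**
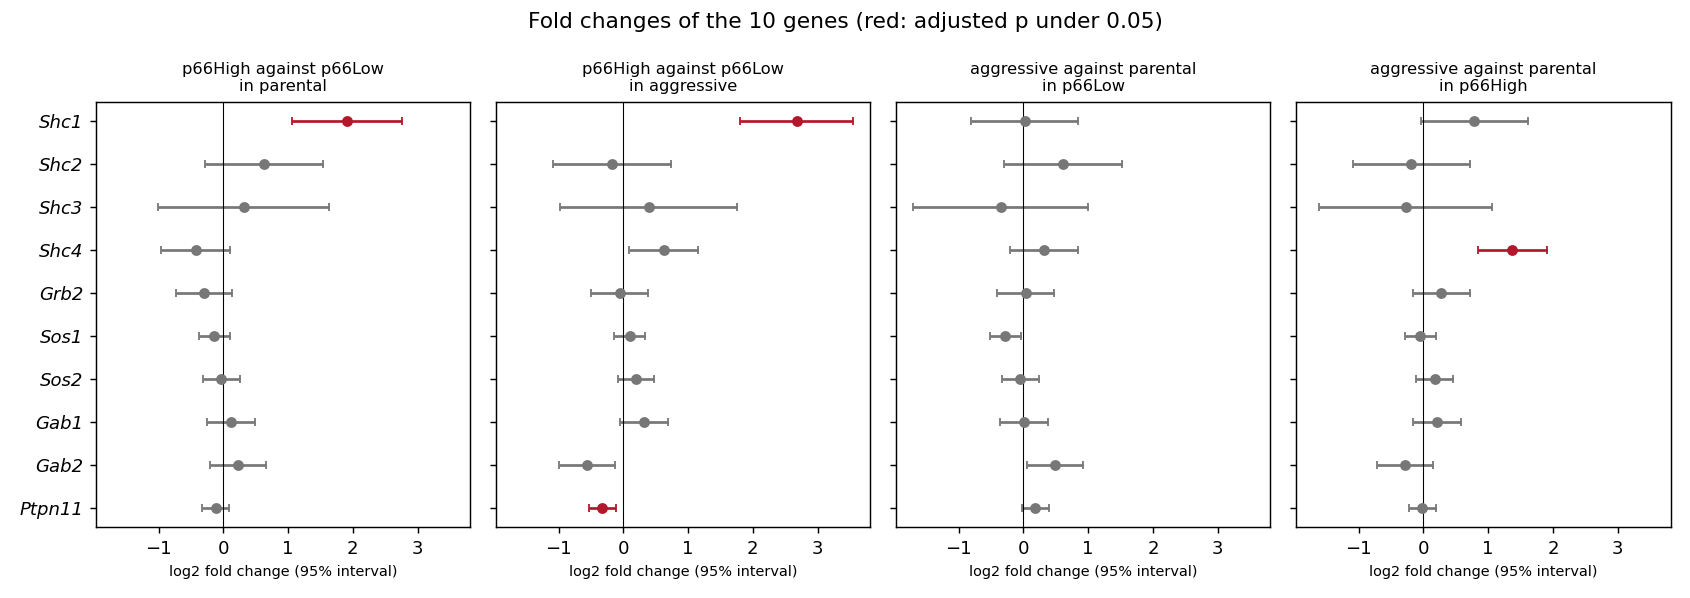
Log2 fold change of each gene (x axis) in the 4 comparisons between groups, a panel each; points are edgeR estimates, bars 95% intervals, and red marks an adjusted p under 0.05. The red points are Shc1 in both p66High against p66Low panels, Ptpn11 in aggressive tumours and Shc4 on selection in p66High tumours.

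In all, 2 of the 10 genes were called for p66High against p66Low in aggressive tumours, Shc1 higher and Ptpn11 lower, where 21% of all 19370 genes were called. In parental tumours 1 of 10 was called, Shc1, where 8.08% of all genes were called. Selection in p66Low tumours gave 0 calls among the 10 by edgeR, DESeq2 or limma-voom, with 2 at an unadjusted p under 0.05 by edgeR, where 16.6% of all genes were called. For the difference between selection changes, edgeR and limma-voom called 0 of 10 with 2 at an unadjusted p under 0.05, while DESeq2 called Shc4 and Gab2; 12.4% of all genes were called by edgeR. Averaged over selection, 2 of 10 were called, Shc1 and Ptpn11, where 15.6% of all genes were called. The median absolute log2 difference of the 10 genes was 0.32 in aggressive and 0.26 in parental tumours between p66 levels, beside 0.30 and 0.25 over all genes tested. Groups did not overlap for 4 of 10 genes in the aggressive pair and 2 of 10 in the parental pair, beside 38.2% and 29.9% of all genes, and for 2 of 10 on selection in p66Low tumours, beside 32.8%. Shc1, the engineered gene, counts in all these tallies between p66 levels, where it serves as a check of the labels. Apart from Shc1, edgeR called only Ptpn11 in the aggressive pair and in the average, and no member in the parental pair. Apart from Shc1, groups did not overlap for Gab1, Gab2 and Ptpn11 in the aggressive pair and for Shc4 in the parental pair. The comparisons share tumours and are not independent of each other.

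Around these 10 genes, other members of the same pathway were described with 6 lists. Between p66 levels, rose and fell here mean higher and lower in p66High than in p66Low tumours. Among 23 other docking proteins and SH2 adaptors, 3 rose and 7 fell in p66High aggressive against p66Low aggressive tumours, where 21% of all genes were called, with a median log2 difference of -0.01 beside 0.02 over all genes. Nck2, an adaptor that links receptors to the actin machinery, averaged 402 ± 13.5 CPM in p66High aggressive and 172 ± 34.1 CPM in p66Low aggressive tumours (log2 1.22, adjusted p = 0.000333). Irs1, the insulin receptor docking protein, rose by 0.93 (adjusted p = 0.00383). Dok3 (-2.06, adjusted p = 0.00362) and Grap2 (-4.73, adjusted p = 0.00557), which are known from blood cells, fell, as the leukocyte markers given above were lower in the same tumours; their part was not tested. With those 3 lymph-node-rich libraries left out, which leaves 1 p66Low aggressive tumour, the values were 0.94 for Nck2 and 0.67 for Irs1. They were -1.18 for Dok3 and -2.40 for Grap2. A call lost there cannot be told apart from the loss of replicates. In parental tumours Nck2 was the 1 called gene of this list, at 395 ± 29.0 CPM for p66High and 231 ± 31.6 CPM for p66Low (log2 0.77, adjusted p = 0.00612).

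Among 17 RAS GTPases, exchange factors and GTPase activators, 1 rose and 6 fell in p66High aggressive tumours, where 21% of all genes were called and leukocyte markers were also lower; the median was -0.15. With the 3 lymph-node-rich libraries left out, 1 p66Low aggressive tumour remains. The values were then -2.93 for Rasgrp1 (-3.73 with all tumours), 0.68 for Rasal2 and -0.94 for Mras. The part of leukocytes was not tested. Rasgrp1, a RAS exchange factor known from lymphocytes, averaged 1.96 ± 0.952 CPM in p66High aggressive and 26.6 ± 11 CPM in p66Low aggressive tumours. Rasal2, a RAS GTPase activator, rose by 0.50 in aggressive (adjusted p = 0.00261) and 0.64 in parental tumours (adjusted p = 0.00148). Mras, a RAS relative, fell by 0.80 in aggressive (adjusted p = 0.00505) and by 0.92 in parental tumours (adjusted p = 0.0052). The Mras level was 6.97 ± 0.968 CPM in p66High aggressive and 12.2 ± 1.54 CPM in p66Low aggressive tumours, with 3.44 ± 0.166 CPM in p66High parental and 6.53 ± 0.647 CPM in p66Low parental tumours. On selection 7 of the 17 rose in p66Low tumours, where 16.6% of all genes were called. In p66High tumours 1 rose, Mras (1.02, adjusted p = 0.00473), where 5.94% of all genes were called. With those 3 lymph-node-rich libraries left out, p66Low selection gave 3.61 for Rasgrp1, 1.04 for Mras, 0.47 for Rras2 and 0.13 for Rasa3. With all tumours these values were 4.41, 0.90, 0.48 and 1.30.

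Of 14 receptor tyrosine kinases that bind Shc, 1 rose and 2 fell in p66High aggressive tumours, and 1 rose and 1 fell in p66High parental tumours, where 21% and 8.08% of all genes were called; the medians were 0.05 and 0.12. Ntrk2, the neurotrophin receptor TrkB, averaged 30.9 ± 5.73 CPM in p66High aggressive and 10.2 ± 3.27 CPM in p66Low aggressive tumours (log2 1.58, adjusted p = 0.00118). In parental tumours it averaged 42.3 ± 4.45 CPM for p66High and 17.9 ± 4.27 CPM for p66Low (log2 1.24, adjusted p = 0.0073). Erbb4, a partner of ErbB2, averaged 0.0508 CPM in p66High aggressive and 1.87 CPM in p66Low aggressive tumours, and 0.274 CPM in p66High parental and 5.56 CPM in p66Low parental tumours. Erbb4 fell in both pairs (adjusted p = 0.0021 and 0.00223). Met, the hepatocyte growth factor receptor, fell by 0.55 in p66High aggressive tumours (adjusted p = 0.0191). Erbb2 itself did not pass the test in any comparison, with log2 differences between p66 levels of 0.19 in aggressive and -0.02 in parental tumours.

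Among 14 genes for Shc binding, dephosphorylation and the serine kinases of p66, 2 rose and 5 fell in p66High aggressive tumours (median -0.16), where 21% of all genes were called. In parental tumours edgeR called none, with 2 at an unadjusted p under 0.05, and DESeq2 called 1. Src, the kinase that phosphorylates Shc, averaged 188 ± 2.48 CPM in p66High aggressive and 119 ± 19.3 CPM in p66Low aggressive tumours (log2 0.66, adjusted p = 0.0022). Inpp5d, which encodes the lipid phosphatase SHIP1 of blood cells, fell by 1.55 (adjusted p = 0.00106), Prkcb, a protein kinase C gene, fell by 2.27 (adjusted p = 0.00619) and Ptprj, a receptor phosphatase gene, fell by 0.54 (adjusted p = 0.00783). Of 12 RAF, MEK and ERK kinases and scaffolds, Ksr1 rose in p66High aggressive tumours (0.62, adjusted p = 0.0197). In parental tumours edgeR called none of the 12, with 3 at an unadjusted p under 0.05, and DESeq2 called 1. Among 11 PI3-kinase and AKT genes, Pik3cd, the leukocyte catalytic subunit, fell in p66High aggressive tumours (-2.35, adjusted p = 0.00478). Leukocyte markers were lower in the same tumours, at 136 to 224 summed CPM in p66High aggressive and 400 to 1073 summed CPM in p66Low aggressive tumours, and their part was not tested. With the 3 lymph-node-rich libraries left out, which leaves 1 p66Low aggressive tumour, the aggressive difference was -0.92 for Inpp5d and -0.74 for Ptprj. The values were then 0.45 for Src, -0.98 for Prkcb, 0.91 for Ksr1 and -0.78 for Pik3cd. Those of Ptprj and Ksr1 were no smaller in size than with all tumours. Pik3r3, a regulatory subunit, and Pik3ca rose in p66High parental tumours (0.67 and 0.30, adjusted p = 0.0305 and 0.0465). Pik3r3 kept its call under 16 of 21 other settings and Pik3ca under 6, and both lost it with the lymph-node-rich libraries left out (adjusted p = 0.0839 and 0.0955). On selection in p66Low tumours the lists of adaptors, Shc binding genes, RAF to ERK genes, PI3-kinase genes and receptors had 6, 5, 0, 2 and 1 genes that rose and 1, 0, 1, 0 and 1 that fell, where 16.6% of all genes were called. Leukocyte markers summed to 400 to 1073 CPM in those p66Low aggressive tumours and 162 to 211 CPM in p66Low parental tumours, and their part was not tested. Without the lymph-node-rich libraries Grb14, Ptprj, Pik3r3 and Met were at 1.75, 0.66, 1.69 and 0.97 (1.31, 0.44, 1.42 and 0.74 with all tumours). Lat, Inpp5d, Prkcb and Pik3cd were at 2.12, 0.76, 0.43 and 0.995 (4.81, 1.39, 1.72 and 2.56 with all tumours). In p66High tumours selection gave 1, 1, 0, 1 and 0 that rose, among them Grb14 (1.64, adjusted p = 0.0106) and Src (0.52, adjusted p = 0.0185), and 2, 0, 0, 0 and 0 that fell, Dok4 and Gab3, where 5.94% of all genes were called. Without those libraries 2, 1, 0, 0 and 0 were called, and the adjusted p was 0.0649 for Dok4 and 0.0775 for Gab3. Their medians lay between -0.02 and 0.23.

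The genes most like Shc1 over the 12 tumours were sought among 12356 protein-coding genes with a mean of at least 2 CPM, by Pearson's r of log2 CPM. They were Fam117b, Copa, Cxadr, Sf3b1 and Sdhc, with r of 0.97, 0.95, 0.95, 0.95 and 0.95, as a description of 12 points that fall into groups set by p66 level. Cxadr, which encodes a cell junction protein on chromosome 16, averaged 263 CPM in p66High aggressive, 70.7 CPM in p66Low aggressive, 152 CPM in p66High parental and 69.0 CPM in p66Low parental tumours. The other 4 lie on chromosome 1. Of these, Fam117b had no p66High tumour under 69.2 CPM and no p66Low tumour over 56.9 CPM, and Copa, a vesicle coat gene, had none under 426 CPM and none over 390.1 CPM.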

How the data were processed

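RNA of 12 bulk tumours was analysed, 3 in each of 4 groups taken from the sample titles. Libraries were rRNA-depleted and stranded, per the labels' protocols. The deposited table holds whole-number read counts per gene, not normalized, which the authors made with Trimmomatic 0.32, STAR 2.3.0e and featureCounts 1.4.4 on mm10, per the submitters' processing notes. The annotation release, strand setting and handling of multimapping reads are not stated in any source used here. For that reason genes that overlap on the other strand (Eid1 for Shc4, noncoding genes for Gab1 and Shc2) are uncertain.

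Counts were tested in R 4.3.3 with edgeR 4.0.16: filterByExpr, TMM scaling, and a quasi-likelihood F-test on all 12 tumours in 4 groups (8 residual degrees of freedom). Benjamini-Hochberg adjustment ran over the 19370 tested genes and calls needed an adjusted p under 0.05. Dividing the size of a log2 fold change by the root of its F gave the SE, from which 95% intervals were made with 8 degrees of freedom. The F-test also uses prior degrees of freedom shared over genes, so the intervals are wider than its p-values imply. The 6 comparisons were the pairs within p66 level or selection, their interaction, and p66 level averaged over selection. The fit was first tested on simulated counts. Exon lengths and coding sequences came from GENCODE M21 (GRCm38).

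The 10 genes and the lists were chosen with earlier results of these data known. All 10 were named in every comparison, as were up to 4 called genes of smallest p per list and the 5 genes with the highest r to Shc1. For the interaction all called list genes were named. Some list genes are not reported here. Sox10, Eid1, Erbb2 and the neighbouring genes were added after values were seen. Replicates of each group differed by more than sampling noise (lowest chi-square per degree of freedom 19.1), so all were kept. The floor of 3 counts and the counting behind it cover counting error only. The settings varied were the scaling, the tool (DESeq2 1.42.0, limma-voom with limma 3.58.1), the filter, only the tumours compared, summing tumours of a group whose titles share a number (p66High parental replicates 1 and 2, p66High aggressive replicates 1 and 2), and leaving out each tumour or the 3 libraries rich in lymph node genes.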

Additional observations from a re-analysis of the deposited data

Results flagged for a closer look

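Among the 10 genes no difference between the selection changes of p66High and p66Low tumours passed the test. It did for 16 genes of the pathway lists, where 12.4% of all genes were called. Those lists held 23, 14, 17, 12, 11 and 14 tested genes. Sox10, which was picked after its values were seen, also passed. The value given is the aggressive against parental log2 change in p66High minus that in p66Low tumours. Higher values in p66High were those of Nck1 (0.73, adjusted p = 0.00926), Mapk3, the ERK1 kinase gene (1.01, adjusted p = 0.0409), and Sox10 (1.70, adjusted p = 0.00246). For Sox10 the change was 1.34 in p66High and -0.36 in p66Low tumours, and for Nck1 it was 0.28 and -0.45.

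Lower values were those of Met (-1.04, adjusted p = 0.011), Rras2 (-0.73, adjusted p = 0.0108), Inpp5d (-1.87, adjusted p = 0.00617), Pik3cd (-3.03, adjusted p = 0.0138) and Prkcb (-2.54, adjusted p = 0.027). The same held for Rasgrp1 (-5.33, adjusted p = 0.00321), Rasgrp3 (-1.95, adjusted p = 0.0401), Rasgrf2 (-4.36, adjusted p = 0.0206), Dok3 (-2.33, adjusted p = 0.018), Grap2 (-6.01, adjusted p = 0.0137), Grap (-3.62, adjusted p = 0.0215), Gab3 (-1.69, adjusted p = 0.0319), Rasgrp2 (-3.84, adjusted p = 0.0423) and Lat (-6.60, adjusted p = 0.0188). All adjusted p-values are from edgeR's quasi-likelihood test. Leukocyte markers were highest in p66Low aggressive tumours, and their part in these values was not tested. With the 3 lymph-node-rich libraries left out, which leaves 1 p66Low aggressive tumour, the values were -3.58 for Rasgrp1 and 1.55 for Sox10. Those of Met (-1.36), Nck1 (0.90) and Rras2 (-0.78) were then no smaller in size than with all libraries. Those of Inpp5d (-1.16), Pik3cd (-1.02) and Lat (-1.94) were smaller.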

How the results depend on the processing

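Over 21 alternatives, 1150 of 1230 recomputed log2 differences of the 10 genes kept their direction and their side of the threshold, 17 lost a call, 18 gained one and 45 changed sign, none of these last called in the full fit. Shc1 in parental tumours was called under all 21. The fit of only the tumours compared was not made for the interaction and the average. Neither that fit nor the stricter filter gave a value for Shc3. The depth limits Shc3, at 3 to 16 counts. No paired analysis was possible because the labels give the groups no shared replicate numbers. Causes of the changes below were not tested.

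The number of all genes called for p66High against p66Low parental tumours was 2509 with DESeq2, 908 with tumours of a shared title number summed, and 838 with the 3 libraries of high lymph node signal left out. Without those libraries it was 1075 for the aggressive pair, 705 for selection in p66Low, 586 for selection in p66High, 335 for the interaction and 1486 for the average. DESeq2 called 2177 for selection in p66High tumours, summing gave 305 there and 1179 for the interaction, and the fit of only the tumours compared gave 2128 for selection in p66Low. Of the 10 genes, DESeq2 called 4 in the aggressive pair and 2 for the interaction. With no filter the numbers were 1 in the aggressive pair, 1 for the interaction and 1 for the average. Summing left 0 for selection in p66High and 1 for the average, and omission of the lymph node libraries left 0 in the aggressive pair and 1 for the average.

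Sign changes under single alternatives concerned uncalled log2 differences. With library size alone they were Sos2 in the parental pair (0.013) and on p66Low selection (0.055), and the Shc3 interaction (-0.022). With limma-voom they were Shc3 in the parental pair (-0.083), Shc2 in the aggressive pair (0.070) and Shc3 on p66High selection (0.15). Without the lymph node libraries they were Shc2 (1.03) and Sos1 (-0.021) in the aggressive pair, Shc2 (-0.58) and Sos2 (0.13) on p66Low selection, and Ptpn11 on p66High selection (0.0011). The same omission gave Shc2 (0.22) and Gab1 (-0.043) for the interaction and Shc4 (-0.17) for the average.

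Leaving out 1 tumour at a time, the number of all genes called ranged from 2438 to 4502 in the aggressive pair and 871 to 1927 in the parental pair. It ranged from 457 to 1469 for p66High selection, 1545 to 3505 for p66Low selection and 1179 to 3278 for the interaction. The number of the 10 genes called ranged from 1 to 3 in the aggressive pair, 0 to 1 for p66Low selection, 0 to 1 for the interaction and 1 to 2 for the average. The lowest counts of all genes came without p66Low aggressive replicate 2 in the aggressive pair, without p66Low parental replicate 3 in the parental pair, p66Low selection and the interaction, and without p66High parental replicate 2 in p66High selection.

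The uncalled log2 differences that changed sign without some tumour had these ranges. In the aggressive pair Shc2 ran from -0.54 to 0.16 and Grb2 from -0.13 to 0.080. In the parental pair Sos2 ran from -0.096 to 0.12, Gab1 from -0.0090 to 0.28 and Shc3 from -0.44 to 0.74. On p66High selection Ptpn11 ran from -0.082 to 0.013, Shc3 from -0.71 to 0.48, Shc1 from -0.017 to 1.07 and Sos1 from -0.11 to 0.0046. On p66Low selection Grb2 ran from -0.10 to 0.35, Gab1 from -0.14 to 0.18, Shc1 from -0.036 to 0.097, Sos2 from -0.16 to 0.11 and Shc4 from -0.039 to 0.54. For the interaction Shc3 ran from -0.37 to 0.81, Grb2 from -0.079 to 0.38 and Shc1 from -0.056 to 1.05. For the average Sos1 ran from -0.067 to 0.018, Shc3 from -0.038 to 0.57 and Shc4 from -0.013 to 0.28.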
